A study of Mus musculus with 2 samples.

Results

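The microRNA genes Mir335, Mir483 and Mir675 lie inside the imprinted host genes Mest, Igf2 and H19, and are described here in the hearts of mouse embryos. They were chosen by their host genes and not by a limit on any measured value, though earlier results of these data were known. They are 3 of the 1973 miRNA genes with a row in the count files, and were found by matching the gene IDs, without version, to GENCODE M21 symbols. Small RNA below 30 bases was sequenced from total RNA of hearts of strain B6NCrl at embryonic day 15.5, from embryos labelled healthy, with males and females mixed. The 2 libraries are biological replicates of a single group. Hearts of 78 embryos were pooled for replicate 1 and hearts of 62 embryos for replicate 2. There is no second condition, so the data give the levels of these miRNAs, their order among the others, and how far the pools differed. A pool holds every cell type of the heart, and fewer cells of a type cannot be told apart from less RNA per cell.

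An imprinted gene is transcribed mainly from the copy inherited from one parent. Mest, which encodes an enzyme of the alpha/beta hydrolase fold, and Igf2, which encodes the fetal growth factor IGF-II, are transcribed from the paternal copy. H19 is a long non-coding RNA transcribed from the maternal copy, and it shares enhancers and an imprinting control region with its neighbour Igf2. A miRNA is cut from a hairpin within such a transcript and lowers the output of mRNAs that match its seed, bases 2 to 8. Mir335 is known for its effect on Sox4 and tenascin C in tumour cells, Mir483 for being made along with Igf2, and Mir675 for restraining growth of the placenta through the receptor Igf1r. The counts do not separate the parental copies.

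The RefSeq sequences (GRCm38.p6) of the 6 mature arms are given first, 5′ to 3′, because miRNAs with the same seed can match the same sites in mRNAs. The seed is in capitals.
miR-335-5p: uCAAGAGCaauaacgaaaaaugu
miR-335-3p: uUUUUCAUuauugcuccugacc
miR-483-5p: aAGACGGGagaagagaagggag
miR-483-3p: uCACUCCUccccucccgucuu
miR-675-5p: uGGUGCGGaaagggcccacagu
miR-675-3p: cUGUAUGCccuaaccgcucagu
The 6 seeds differ from each other, and 0 other genes in the table carry any of them. The table holds 1738 mature sequences with 1398 seeds, of which 84.5% belong to 1 gene, so a seed of its own is the usual case.

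The hairpins, with the mature arms in capitals, show where reads of each gene can come from. Counts are per hairpin and do not tell the arms apart.
Mir335 (chr6:30741299-30741396, plus strand): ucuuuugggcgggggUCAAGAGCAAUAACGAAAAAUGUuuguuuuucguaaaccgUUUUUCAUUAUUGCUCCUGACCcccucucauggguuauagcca
Mir483 (chr7:142654924-142654996, minus strand): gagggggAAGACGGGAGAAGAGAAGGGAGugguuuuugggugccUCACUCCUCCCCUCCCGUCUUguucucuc
Mir675 (chr7:142577064-142577147, minus strand): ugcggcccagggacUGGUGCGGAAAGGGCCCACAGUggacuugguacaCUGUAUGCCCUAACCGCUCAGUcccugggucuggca
The hairpins are 98, 73 and 84 bases long for Mir335, Mir483 and Mir675. No stretch of 20 bases of any of the 3 hairpins occurs in another of the 1005 RefSeq hairpins, on either strand. The mature arms occur in 0 other hairpins. Among 141767 annotated transcripts, the Mir675 arms occur in H19 and no other gene, and the arms of Mir335 and Mir483 in none besides their own hairpins. Reads that matched several places in the genome are in no gene count, so near copies would cost a gene reads. No copy was found by these searches, and the whole genome was not searched.

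The hairpins differ in base composition. Mir335 has 42.9% G and C, Mir483 58.9% and Mir675 63.1%, beside a median of 50.0% over the 286 hairpins of detected genes that have a sequence. Of those 286, 54 have a lower share than Mir335, 238 than Mir483 and 259 than Mir675. The 5p arm of Mir335 is 52.2% A, and the 5p arm of Mir483 holds no U. RNAfold gave the Mir675 hairpin a minimum free energy of -56.0 kcal/mol, that of Mir335 -44.3 and that of Mir483 -33.8. Per base, the predicted fold of Mir675 (-0.667 kcal/mol) was more stable than that of 281 of the 286, and Mir335 (-0.452) and Mir483 (-0.463) lay nearer the median of -0.435. These are predictions from sequence, not measurements in the tissue.

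Each member lies on the strand of its host. Mir335 (ENSMUSG00000065501.1) starts 17752 bases into Mest, a gene of 24919 bases on chromosome 6. Of the 11 annotated Mest transcripts, 7 span it, each with the hairpin in the same intron of 1316 bases (chr6:30740825-30742140). Mir483 (ENSMUSG00000070140.1) starts 11820 bases into Igf2 on chromosome 7, a gene of 16051 bases. It lies in an intron of 1205 bases (chr7:142654449-142655653) in the 7 of 9 Igf2 transcripts that span it, and the annotated gene Gm49394 spans it too. Mir675 (ENSMUSG00000076275.1) starts 996 bases into H19, a gene of 2615 bases. It lies in an exon in 3 of the 4 H19 transcripts that span it, exon 1 of 5 in H19-202 among them, and in an intron in the other. The hairpins of Mir675 and Mir483 are 77.8 kb apart.

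**Figure D1:**
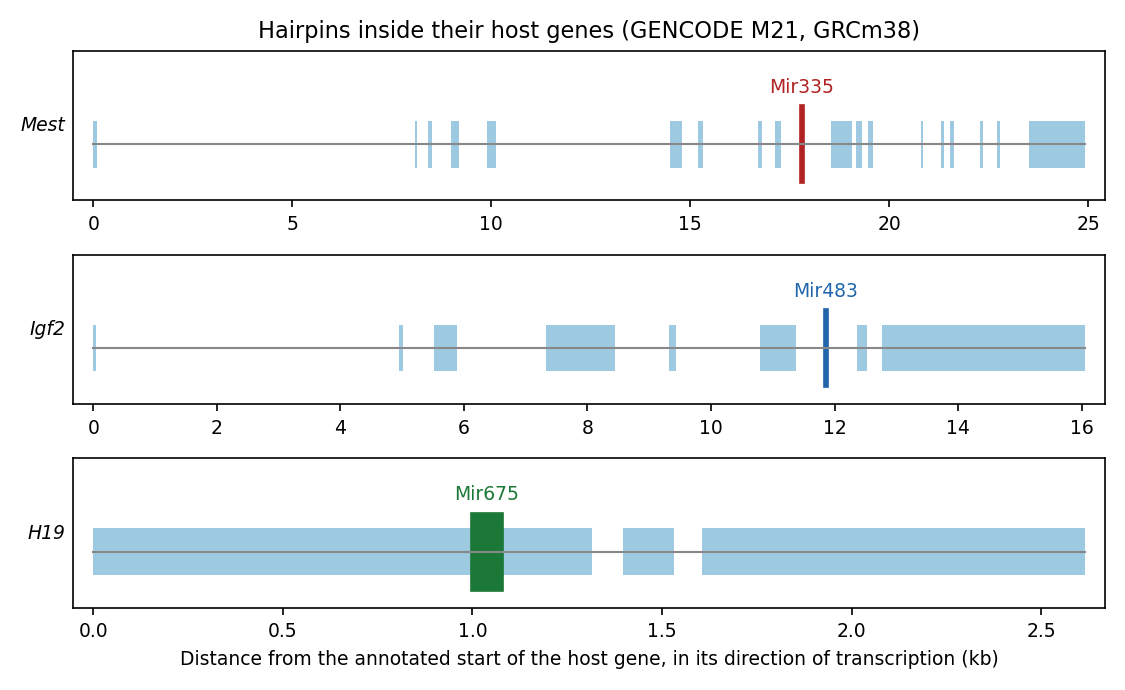
Host genes Mest, Igf2 and H19 drawn to scale from their annotated starts in the direction of transcription (x axis, kb), with the exons of every annotated transcript merged in light blue and the hairpins in dark colours. Mir335 and Mir483 sit between exons, and Mir675 sits within the first exon block of H19.

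All 3 genes had at least 10 counts in both libraries, though depth limited the precision of Mir675 (377 and 631 counts). Replicate 1 held 3439539 counts on the strand of a miRNA gene and replicate 2 held 5833156, so that 1 count is worth 0.291 and 0.171 CPM (counts per 1000000 counts). The markers chosen for heart muscle and endothelium were present. The heart muscle miRNAs Mir208a, Mir208b and Mir499 summed to 62341 CPM in replicate 1 and 45466 in replicate 2. The endothelial Mir126a had 79217 and 67775 CPM. The heart muscle miRNAs Mir1a and Mir133a were not on the list. No gene of either name was among those with at least 10 counts in both libraries, and reads with several matches are in no gene count. The markers of several other tissues were present and uneven. The 7 epithelial miRNAs summed to 1821 and 6297 CPM, the liver miRNA Mir122 had 87.2 and 309 CPM, and the erythroid Mir144 and Mir451a summed to 2376 and 986 CPM. Of the neural markers, 5 of 6 symbols matched, 4 of these were at 0 counts in both libraries, and the sum was 0.291 and 1.54 CPM. The neural list holds numbered genes of Mir124a and Mir9, and reads with several matches are in no gene count. These low values therefore cannot show that neural RNA was absent.

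Mir335, from the Mest intron, was the most counted miRNA gene of the 1973 in each library, among reads placed at a single site. Reads with several matches, 33.0% and 30.1% of all reads in replicates 1 and 2, are in no gene count, so miRNAs with several copies can be undercounted beside it. It had 336709 counts in replicate 1 and 560215 in replicate 2. These were 97894 CPM (exact binomial 95% interval 97580 to 98208) and 96040 CPM (95801 to 96279), a mean of 96967 ± 1311 CPM (SD, n = 2). In CPM, which scales by total counts, the pools differed by little beside the mean, with a coefficient of variation of 1.35%. The size of the difference depends on the scaling. With the TMM factors used below, the log2 ratio of replicate 1 to replicate 2 was 0.20. Almost 1 count in 10 was therefore a read of Mir335, 9.79% in replicate 1 and 9.60% in replicate 2. Of all reads, including unmapped and multiply placed ones, it made up 4.77% in both replicates.

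Mir483, from the Igf2 intron, stood well below Mir335 but still among the upper miRNA genes. It had 7504 counts in replicate 1 and 14914 in replicate 2. Replicate 1 gave 2182 CPM (2133 to 2232) and replicate 2 gave 2557 CPM (2516 to 2598), a mean of 2369 ± 265 CPM (SD, n = 2). The intervals of the replicates did not overlap, and replicate 2 was the higher. Its coefficient of variation was 11.2%. Its rank was 49 in replicate 1 and 47 in replicate 2.

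Mir675, from the H19 exon, was the lowest of the members. It had 377 counts in replicate 1 and 631 in replicate 2. These came to 110 CPM (98.8 to 121) and 108 CPM (99.9 to 117), a mean of 109 ± 1.01 CPM (SD, n = 2). The intervals overlapped over most of their width. The coefficient of variation of 0.931% was smaller than counting error alone, and with n = 2 it says little about the spread between pools. Mir675 ranked 169 and 189 in the replicates, and 45.3% of the 327 detected miRNA genes (at least 10 counts in both libraries) had a lower mean. The files hold no counts for H19 itself, so the share of H19 transcripts cut to Mir675 was not analysed here.

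**Figure D2:**
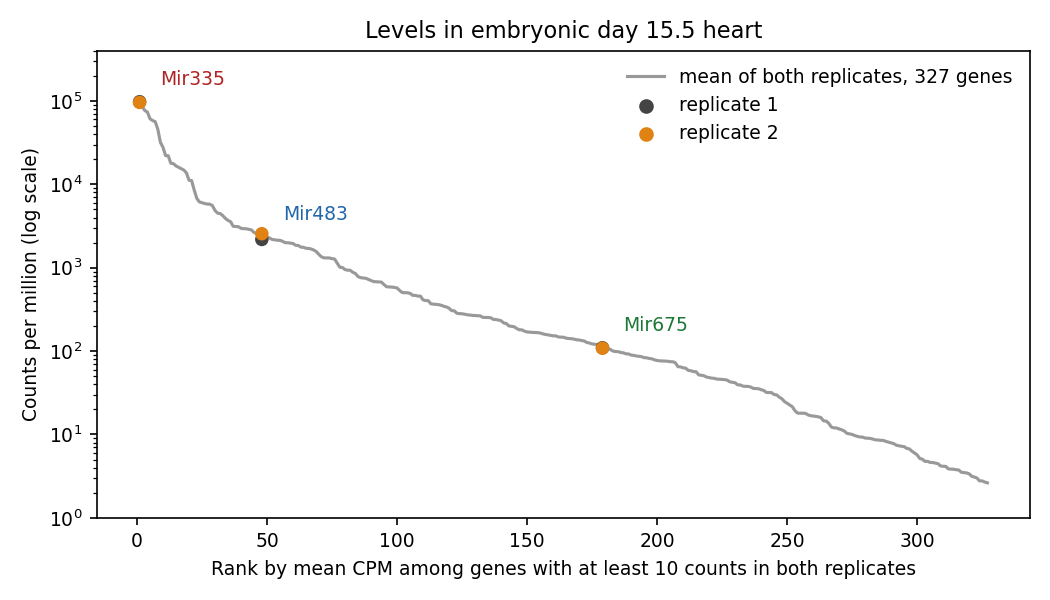
Level in CPM (y axis, log scale) against rank by mean (x axis) for the 327 detected miRNA genes, as a grey line. Points give the members in replicates 1 and 2, with Mir335 at the top at 97894 and 96040, Mir483 at rank 48 and Mir675 at rank 179.

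In the order of levels, Mir335 lay above the next gene in both libraries, by a small ratio. The ranges of the other members overlapped those of the genes next to them. Mir143, a miRNA of smooth muscle, came next with 82454 and 88393 CPM, and the ratio of Mir335 to it was 1.19 in replicate 1 and 1.09 in replicate 2. Mir322, of the Mir15 seed family, followed with 81074 and 72546 CPM. The replicates of Mir335 overlapped with those of neither. The genes next to Mir483 were Mir181c and Mir542 above it and Mir139 and Mir431 below it, and each had a range that overlapped that of Mir483. Mir139, in an intron of the phosphodiesterase gene Pde2a, had nearly the same counts, 7455 and 14866. The ratio of Mir483 to Mir139 was 1.01 (0.975 to 1.04) in replicate 1 and 1.00 (0.981 to 1.03) in replicate 2. Around Mir675, the genes Mir20b and Mir1981 lay above and Mir92b and Mir376c below by mean, again with overlapping ranges. Mir1981, in an intron of Marc2, was the closest at 109 and 115 CPM, and the ratio of Mir675 to it was 1.00 (0.867 to 1.16) and 0.939 (0.841 to 1.05).

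The genes most like each member over both libraries were taken by the distance between their pairs of log2 CPM values. For Mir335 these were Mir143 (distance 0.28), Mir322 (0.49) and the endothelial Mir126a (0.59). Mir483 had Mir139 (0.011), Mir15a (0.096) and Mirlet7f-2 (0.20). Mir675 had Mir1981 (0.091), Mir3102 (0.17) and Mir490 (0.24), which lies within Chrm2. With 2 libraries this is a likeness of levels and describes no shared pattern.

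The nearest annotated miRNA genes on the chromosome had far fewer counts than Mir335 and Mir483. Mir183, 572 kb below Mir335, had 524 and 4539 counts (152 and 778 CPM). Mir29a, 321 kb above it, had 836 and 1539 counts (243 and 264 CPM). Mir7064, 916 kb from Mir483 in an intron of Cars, had 2 and 1 counts. On the other side, the neighbour of Mir483 is Mir675. Mir3104, 585 kb below Mir675, had 0 counts in both libraries, where 3 counts would be 0.872 and 0.514 CPM.

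The ratios between the members do not depend on how the libraries are scaled to each other. Counts of different miRNAs were not calibrated against each other, so these are ratios of reads. Mir335 had 44.9 reads for each read of Mir483 in replicate 1 (43.9 to 45.9) and 37.6 in replicate 2 (37.0 to 38.2). Mir335 had 893 reads for each read of Mir675 in replicate 1 (807 to 991) and 888 in replicate 2 (821 to 961). Mir483 had 19.9 reads for each of Mir675 in replicate 1 (17.9 to 22.1) and 23.6 in replicate 2 (21.8 to 25.6). As log2 ratios these were 5.36 ± 0.18, 9.80 ± 0.0061 and 4.44 ± 0.18 (SD, n = 2). The SD of 0.0061 was smaller than counting error alone, and with n = 2 it says little about the spread between pools.

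The ratio of Mir335 to Mir675 was therefore nearly the same in both pools, while Mir483 was relatively higher in replicate 2 against each of the others. Fisher's exact test (two-sided, Benjamini-Hochberg over the 3 pairs) compared each ratio between the libraries, against counting error alone. The ratio of Mir335 to Mir483 was 1.19 times as high in replicate 1 (adjusted p = 1.77e-35), and that of Mir483 to Mir675 was 0.842 times as high (adjusted p = 0.0159). The ratio of Mir335 to Mir675 differed by a factor of 1.01 (adjusted p = 0.948). Mir483 and Mir675, neighbours on chromosome 7, thus differed from each other between the pools by more than counting error, while for Mir335 and Mir675, on different chromosomes, no difference was detectable at this depth. These tests compare 2 libraries and no conditions.

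**Figure D3:**
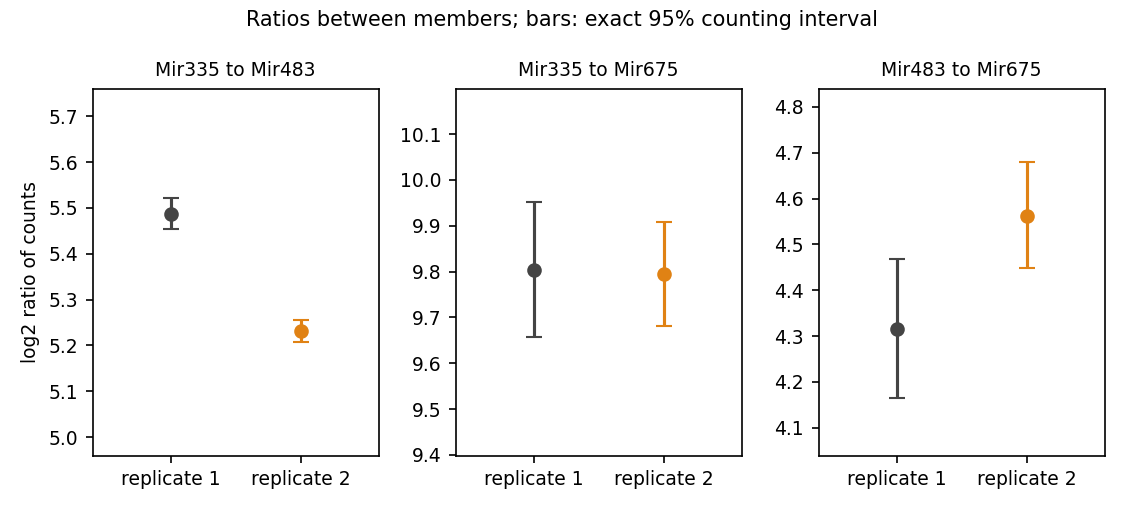
log2 ratio of counts (y axis, each panel spanning 0.8) for the 3 pairs of members in replicates 1 and 2, with exact 95% counting intervals as bars. The intervals overlap for Mir335 to Mir675 (893 and 888 as ratios), overlap slightly for Mir483 to Mir675 (19.9 and 23.6), and are clear of each other for Mir335 to Mir483 (44.9 and 37.6).

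Each gene was also compared between the libraries by an exact binomial test at library sizes scaled with edgeR's TMM factors (trimmed mean of M values), with Benjamini-Hochberg adjustment over the 413 genes with at least 10 summed counts. The test takes counting error as the only error, and 46.5% of the tested genes passed an adjusted p of 0.05. Those higher in replicate 1 were 21.8% of the genes tested, and those higher in replicate 2 were 24.7%. Passing it is thus common, and more so for abundant genes: of the 48 tested genes at or above the level of Mir483, 93.8% passed. Of the 3 members, Mir335 passed toward replicate 1 and Mir483 toward replicate 2. Mir335 had a log2 ratio of replicate 1 to replicate 2 of 0.20 (interval 0.19 to 0.21), with a p too small to be represented. Mir483 had a log2 ratio of -0.056 (-0.096 to -0.016, binomial test, adjusted p = 0.0156). Mir675 had 0.19 (0.0040 to 0.38, binomial test, adjusted p = 0.0863) and did not pass.

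The differences of Mir335 and Mir675 were of a common size among the miRNA genes, and that of Mir483 was among the smaller ones after TMM. Over the 327 detected genes the median size of the log2 ratio was 0.24, with quartiles of 0.11 and 0.50. Of the detected genes, 135 had a smaller difference than Mir335, 127 a smaller one than Mir675 and 45 a smaller one than Mir483. The 20 most abundant genes had a median log2 ratio of 0.19, beside 0.20 for Mir335, which is one of them. The epithelial and liver markers given above differed by more. Their log2 ratios of summed CPM, which scales by total counts and not by TMM, were -1.79 and -1.82. After TMM the liver marker Mir122 had -1.65. The erythroid sum had a log2 ratio of 1.27 by total counts, carried by Mir451a (1975 and 564 CPM), while Mir144 had 401 and 422 CPM. The part of these markers in the difference of Mir483 was not tested.

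The scaling decided how the members' differences read. By total counts, the median log2 ratio of detected genes was -0.18, against -0.0045 after TMM, and Mir335, Mir483 and Mir675 had log2 ratios of 0.028, -0.23 and 0.020. On that scale the differences of Mir335 and Mir675 were near 0 and that of Mir483 was the largest of the 3. Mir335 and Mir483 passed on that scale too (adjusted p = 9.40e-18 and 8.22e-29, binomial test), and Mir675 did not (adjusted p = 0.897). With DESeq2 size factors Mir483 no longer passed (-0.016, adjusted p = 0.583) and Mir675 did (0.23, adjusted p = 0.0340). The directions of the 3 members were the same in each of these scalings. Of the genes called, 46.9% were higher in replicate 1 after TMM, 23.6% by total counts and 54.3% with DESeq2 size factors.

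**Figure D4:**
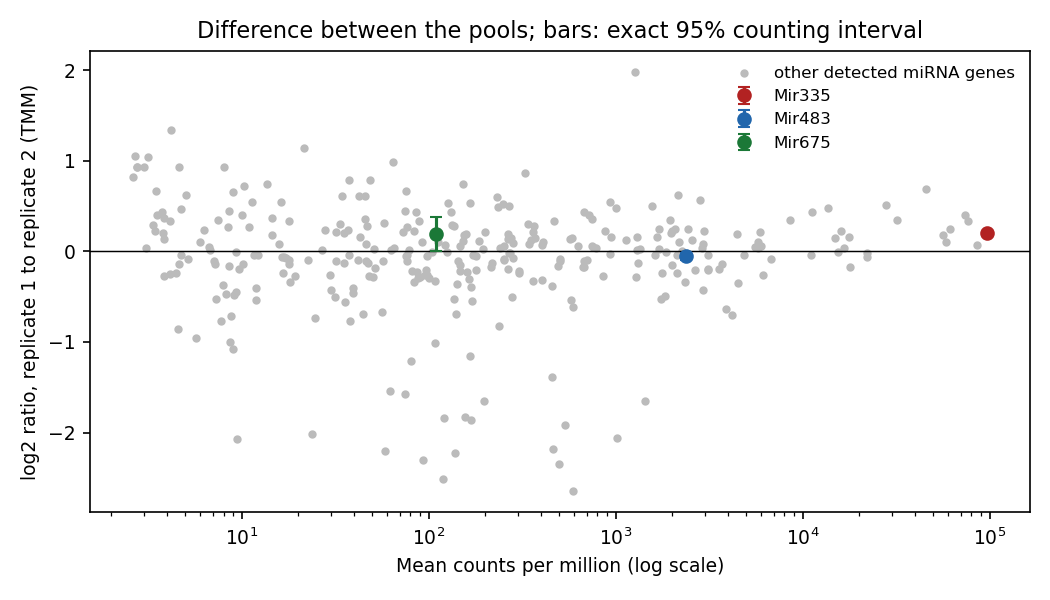
log2 ratio of replicate 1 to replicate 2 after TMM scaling (y axis) against mean CPM (x axis, log scale) for the detected miRNA genes, in grey, and the members, in colour with exact 95% counting intervals. Mir335 (0.20), Mir483 (-0.056) and Mir675 (0.19) lie near 0, while other genes reach beyond 2 in size.

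Position in the host was set beside detection over the miRNA genes with a GENCODE M21 match, as a description. In introns of protein-coding genes, the class of Mir335 and Mir483, 118 of 654 genes (18.0%) were detected, with a median of 135 CPM among those detected. Mir335 ranked 1 and Mir483 20 in this class. Mir335 alone gave 25.1% of the counts of the class in replicate 1 and 25.4% in replicate 2. In exons of long non-coding genes, the class of Mir675, 43 of 68 genes (63.2%) were detected, with a median of 139 CPM. Mir675 ranked 25 in it, below that median. In introns of long non-coding genes 21 of 75 (28.0%) were detected, and in exons of protein-coding genes 32 of 200 (16.0%). Outside any host gene 113 of 897 (12.6%) were detected.

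Other imprinted loci with miRNA genes were summed for comparison. The 3 members together had 100185 CPM in replicate 1 and 98705 in replicate 2, of which Mir335 gave 97.7% and 97.3%. The 59 miRNA genes between Dlk1 and Dio3 on chromosome 12 summed to 32133 and 40707 CPM, with 43 detected, led by Mir411 (6141 ± 1295 CPM, n = 2) and Mir487b (5560 ± 356 CPM, n = 2). At the Gnas locus, Mir296 had 1976 and 2291 CPM and Mir298 had 1737 and 1975 CPM, both close below Mir483. The 107 miRNA genes within Sfmbt2 summed to 2525 and 3085 CPM, with 9 detected, led by Mir467d (722 and 981 CPM) and Mir467e (721 and 783 CPM). Of the 13 genes of the Mir344 family 0 were detected, and Mir344b had 1 and 6 counts and Mir344c 0 and 2. Over these lists the members made up 72.3% of the summed CPM in replicate 1 and 67.3% in replicate 2. These shares leave out reads with several matches, which can lower the sums of repeated families such as those of Sfmbt2 and Mir344. After TMM, 5 of the 62 tested genes on the lists, members included, were called higher in replicate 1 and 22 in replicate 2. Over all 413 tested genes, 90 (21.8%) and 102 (24.7%) were. Of the 47 tested Dlk1-Dio3 genes 4 and 19 were called, and their median log2 ratio was -0.20 after TMM. By total counts, the log2 ratio of the summed CPM of all 59 genes there was -0.34. Over all genes the split of calls by direction changed with the scaling, as given above.

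**Figure D5:**
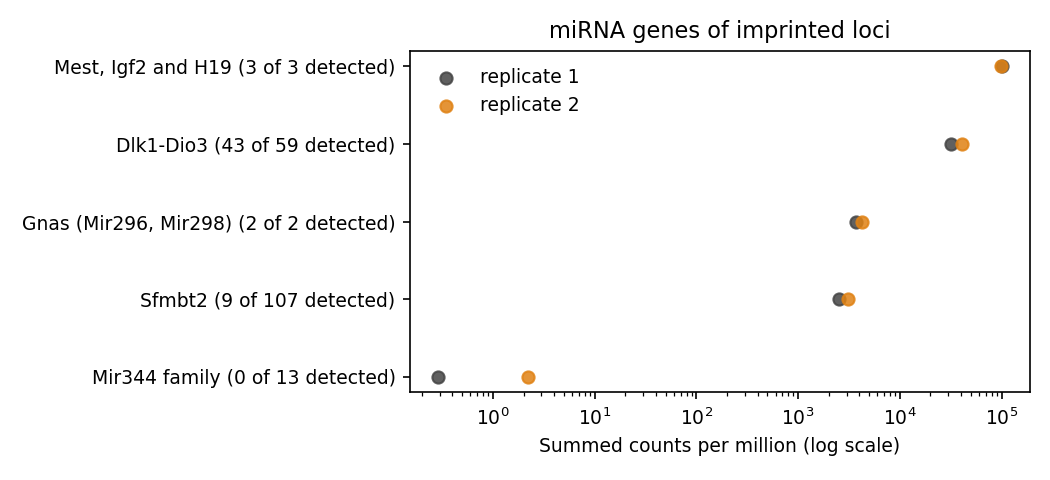
Summed CPM (x axis, log scale) of the miRNA genes of each imprinted locus (rows) in replicates 1 and 2. The members' sum is 100185 and 98705, above the Dlk1-Dio3 genes at 32133 and 40707, and the Mir344 family lies at 0.291 and 2.23.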

How the data were processed

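Small RNA libraries from 2 pools of embryonic hearts were analysed. The counts deposited by the authors are whole read counts per miRNA gene in 3 columns without a header. No source names the columns. From the values, they were read as unstranded, sense and antisense counts, since the last summed to 6.08% and 5.13% of the middle one in replicates 1 and 2. Per the text files deposited with them, reads were placed on mm10 and counted over GENCODE M4. No aligner, trimming step or counter is named in them. The sense column was used, and 4 leading lines that name no gene stayed out of totals. Of all reads, 33.0% and 30.1% in replicates 1 and 2 matched several places and are in no gene count, and 13.1% and 15.1% were unmapped. A further 5.11% and 5.07% lay on the strand of no miRNA gene in the files, and can lie in genes of other types.

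CPM, exact binomial (Clopper-Pearson) intervals at 95% and ratios were computed with Python 3.11.15 and scipy 1.17.1. No molecular identifiers are in the files, so intervals and the limit of 3 counts for a count of 0 cover counting error only. Libraries were scaled with edgeR 4.0.16 (TMM), with total counts or DESeq2 1.42.0 size factors as alternatives, and 0.5 was added to counts in log2 ratios. With 1 library on each side the spread could not be estimated, so an exact binomial test was used. Hairpins were folded with RNAfold 2.7.2.

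Of the 1973 IDs, 1894 matched GENCODE M21. The members and lists were chosen with earlier results of these data known. Named genes were the members, their 2 neighbours on each side by level, the 3 nearest by log2 CPM, the nearest miRNA gene on each side, any with a shared seed, and the 2 leading genes of each other imprinted locus. Tissue markers were Mir208a, Mir208b and Mir499 (heart muscle), Mir143 and Mir145a (smooth muscle), Mir126a, Mir451a and Mir144, Mir223 (myeloid), Mir122, 7 epithelial genes, Mir206 (skeletal muscle) and 6 neural genes. The smooth muscle, myeloid and skeletal muscle markers summed to 86427, 403 and 87.5 CPM on average.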

Additional observations from a re-analysis of the deposited data

Results flagged for a closer look

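The column of counts on the opposite strand, which no comparison used, held 5 counts at Mir335 in replicate 1. They were 0.00148% of the 336714 counts on either strand, and replicate 2 had 0 counts there beside 560215. Mir483 had 0 counts on the opposite strand in both libraries, and Mir675 had 0 and 1. Over all miRNA genes the counts on the opposite strand came to 6.08% and 5.13% of those on the gene's strand, so the share at Mir335 was far lower.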

How the results depend on the processing

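Of 36 alternative values of the members' levels, ranks and ratios, 26 kept their direction and their side of the threshold or, with no test, moved by less than the SD of the replicates, and 0 reversed. A value counted as kept can still change in size. By total counts the log2 ratio of Mir335 was 0.028 and that of Mir483 -0.23, against 0.20 and -0.056 after TMM. Levels moved with the denominator. As CPM of all reads, Mir335 had 47726, Mir483 1167 and Mir675 53.6. As CPM of the counts without Mir335, Mir335 had 107380 and Mir675 121, and with counts on either strand they had 91818 and 103. These shifts follow from the size of the denominator. The rank of Mir483 was 51 with counts on either strand, against 48. With DESeq2 size factors the log2 ratio of Mir483 was -0.016 and not called, and that of Mir675 was 0.23 and called. Only the relative library size changes between these settings. By total counts 48 genes were higher in replicate 1 and 155 in replicate 2, against 90 and 102. Without a filter 180 genes were called and with a minimum of 20 counts 188, against 192. DESeq2 size factors gave 102 genes higher in replicate 1 and 86 in replicate 2. Leaving out a replicate gives the value of the other one, which with 2 replicates cannot differ from the mean by more than the SD, so it shows nothing about stability. No paired analysis was possible because the study has 1 group. With 377 and 631 counts, Mir675 is the member whose precision is limited by depth.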
